A study of Mus musculus with 8 samples.

Results

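Tumours that had grown for 4 days in Tlr3/7/9 triple knockout (KO) mice were compared with tumours of the same age in wildtype (WT) mice, with 2 KO arrays against 2 WT arrays out of the 8 arrays of the series. The arrays were chosen by genotype and day in their titles, and no measured value entered that choice. The other 4 arrays hold the tumours of both genotypes at day 6 and served for the shared estimate of the spread and for the comparison between the days. All hosts were C57BL/6 mice that had received a subcutaneous injection of MOPC cells, a murine oropharyngeal carcinoma line, and whole tumour tissue was taken for RNA. The label KO belongs to the host, in which the genes for the endosomal receptors TLR3, TLR7 and TLR9 are knocked out, while the injected carcinoma cells are wildtype. Age and sex of these hosts are not given in the labels. The study names as many mice as arrays for day 6, but whether the 2 day 4 arrays of a genotype came from separate mice is not stated. The p-values at day 4 rest on a spread between arrays that is pooled over the 4 groups of both days. The part of that spread that comes from the day 4 arrays may be technical.

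TLR3, TLR7 and TLR9 sit in the endosome and recognise nucleic acids, double-stranded RNA for TLR3, single-stranded RNA for TLR7 and unmethylated CpG DNA for TLR9. Through the adaptors TRIF and MyD88 they switch on type I interferons and inflammatory cytokines, chiefly in dendritic cells and macrophages. In a tumour, such nucleic acids can come from dying cells, and the study asked what the loss of these receptors in the host does to the growing tumour.

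Of 12976 genes tested, 2 differed between KO and WT tumours at day 4 with limma at an adjusted p under 0.05, which is 0.0154% of the genes. Hal, which encodes the enzyme that starts the breakdown of histidine, rose in the KO tumours and Serpina3n, an acute-phase inhibitor of serine proteases, fell. Below that threshold, the genes of DNA replication, mitosis, endothelium and cholesterol synthesis had higher signals in most or all members of their lists in the KO tumours. The genes of the interferon responses, complement, macrophages, dendritic cells and cytotoxic cells had lower signals in most members. In the brightest probe set of Tlr7 and in both probe sets of Tlr3, both KO arrays lay below both WT arrays.

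The values are MAS5 signals, a brightness per probe set, and each difference below is the KO mean minus the WT mean of log2(signal + 16) with its standard error (SE) from the fit, n = 2 arrays per group. Adding 16 understates the change of dim genes. An exact permutation test of 2 arrays against 2 cannot go below p = 0.333, so that single genes were judged by the limma fit over all genes alone. The 4 arrays ranked the genes much alike, with Spearman correlations of 0.968 to 0.988 between pairs of arrays over the genes tested.

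The 2 WT arrays were not alike, and skeletal muscle genes stood furthest apart among the lists. The median signal of 24 muscle genes was 73.7 in WT replicate 1, 5603 in WT replicate 2, 66.4 in KO replicate 1 and 552.8 in KO replicate 2. Both replicate 2 arrays were thus above both replicate 1 arrays, and WT replicate 2 exceeded KO replicate 2 by a median ratio of 8.85. Of the 24 genes that were more than 4-fold higher in replicate 2 than in replicate 1 in both genotypes, 15 were on the muscle list. Ckm, the muscle creatine kinase, read 100.5 and 19604.8 in the WT arrays and 17.6 and 2195.7 in the KO arrays. Myh4, a fast myosin heavy chain, read 14.6 and 21402.6 in the WT arrays and 7.9 and 520.4 in the KO arrays. Acta1, the actin of skeletal muscle, read 423 and 34991.8 in the WT arrays and 652.8 and 9824.4 in the KO arrays. The genotypes overlapped in each of these 3 genes, which follow the replicate and not the genotype. WT replicate 2 was also the highest array for the adipocyte list, of which all 9 genes tested were lower in KO, with a median of -0.61 that was 0.55 without that array. Because of these arrays, the medians of many gene lists are given below also for the replicate 1 arrays alone, 1 of each genotype, where the muscle list was low in both. For other lists only values without a single array, or none, are given.

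**Figure D1:**
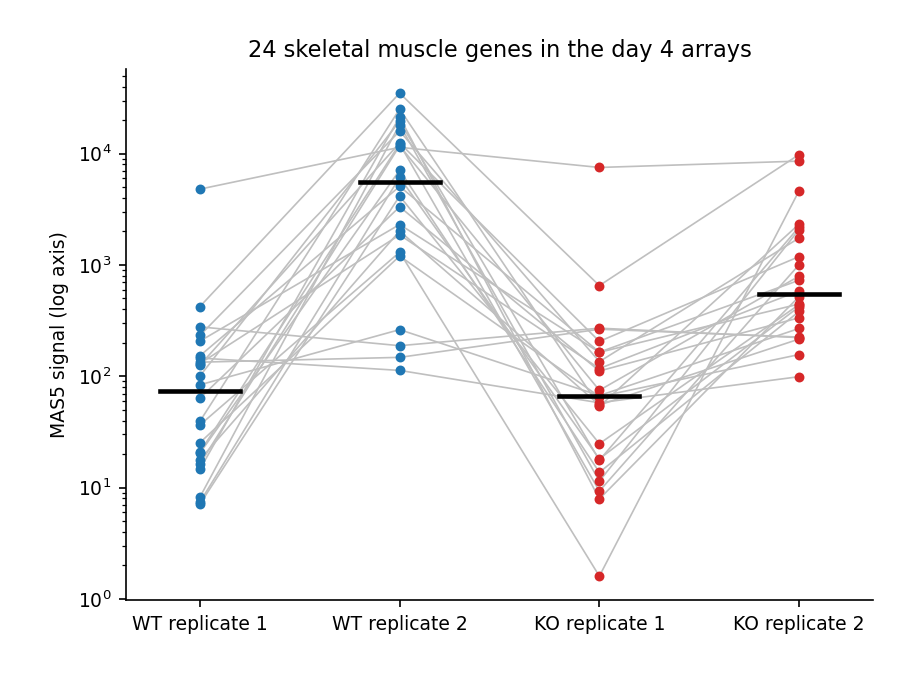
Signal of the 24 tested skeletal muscle genes in each day 4 array (log axis). Each point is a gene, grey lines join the same gene and black bars are medians, which were 73.7 and 5603 in the WT arrays and 66.4 and 552.8 in the KO arrays.

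The tissue label was checked against markers. Krt18 and Krt19, 2 simple epithelial keratins of the carcinoma epithelium list, were bright in all 4 arrays. Krt18 read 20658.5 and 14124 in the WT arrays and 20682.5 and 19770.6 in the KO arrays. Krt19 read 17346 and 17039.3 in WT and 15231.4 and 15866.7 in KO. The 12 carcinoma epithelium genes tested had a median difference of -0.12, and 8 of them were lower in KO. Without overlap, 2 (16.7%) were above and 2 (16.7%) below, and 4 more genes of the list were under the limit for testing. The members of the list farthest from 0 were Dsp and Cdh1, both far dimmer than these keratins. Dsp, the desmosome protein desmoplakin, read 47.5 and 256.6 in WT and 36.6 and 48.8 in KO, a difference of -1.17 (SE 1.70) that was -0.12 without WT replicate 2. Cdh1, the adhesion protein E-cadherin, stood higher in KO, with 210.1 and 277.2 in the WT arrays and 434.8 and 403.4 in the KO arrays, a difference of 0.76 (SE 0.26, limma adjusted p = 0.597). The Y-linked gene Eif2s3y read 798.1 and 1135.7 in WT and 1176.7 and 1108.4 in KO, and Xist, which is transcribed from the inactive X chromosome of females, read 91.5 and 142.1 in WT and 44.6 and 90.6 in KO. Both KO arrays were below both WT arrays for Xist, and the arrays overlapped for Eif2s3y. In a whole tumour, fewer cells of a type and less RNA per cell cannot be told apart, which holds for every list below.

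The deleted genes were read first. Tlr7 has 3 probe sets, and the brightest read 382.9 and 673.4 in the WT arrays and 70 and 25.2 in the KO arrays, a difference of -3.14 (SE 0.61, limma adjusted p = 0.368). The other 2 probe sets of Tlr7 were dim and not lower in KO, with 96.2 and 68.2 in WT against 104.3 and 144.9 in KO for one, and 33.3 and 94.4 against 212.9 and 131.4 for the other. The mean of the probe sets gave -0.44. Tlr3 read 605.4 and 811.1 in WT and 427.2 and 308.8 in KO (-0.92, SE 0.27, limma adjusted p = 0.523), and its other probe set read 390.1 and 647 in WT and 232.8 and 318.9 in KO. In the replicate 1 arrays alone the brighter probe set of Tlr3 differed by -0.49. Both KO arrays lay below both WT arrays in both Tlr3 probe sets, yet a Tlr3 signal was left in the KO tumours. These tumours hold wildtype carcinoma cells, and the source of that signal was not tested. Tlr9 was under the limit for testing, at 137.6 and 34.2 in WT and 128.5 and 102.2 in KO, and the genotypes overlapped. Where the probe sets lie relative to the deleted parts is not stated by the labels or the methods, so that a remaining signal does not check the labels.

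Hal showed the largest difference of all genes tested. It read 28.6 and 5.8 in the WT arrays and 2947.1 and 2920 in the KO arrays. The KO arrays were almost equal and far above both WT arrays, which stood well under the array medians of 153.2 and 175.2. The difference was 6.56 (SE 0.42, limma adjusted p = 0.00199). No fold is given, because the WT signals were not shown to be above background and the difference ran from 5.22 with a pseudocount of 64 to 7.69 with a pseudocount of 1. In the replicate 1 arrays alone the difference was 6.05. The size of the difference hardly moved when a KO array was omitted, but the call ended, with a limma adjusted p of 0.105 without KO replicate 1, 0.0986 without KO replicate 2 and 0.084 when both replicate 2 arrays were left out.

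Serpina3n read 2130.2 and 2682.2 in the WT arrays and 659.1 and 562 in the KO arrays. Both KO arrays were below both WT arrays, and the difference was -1.95 (SE 0.19, limma adjusted p = 0.0264), a 3.85-fold change. It was -1.67 in the replicate 1 arrays alone, where the limma adjusted p was 0.703. The call also ended without WT replicate 2 (adjusted p = 0.104), KO replicate 1 (0.319) or KO replicate 2 (0.646) of day 4, and without replicate 1 (0.123) or replicate 2 (0.128) of the WT arrays of day 6, which share the fit. With the replicate number as a block the adjusted p was 0.0762, and with the day 4 arrays alone it was 0.207. Serpina3n is read by 1 probe set here, as is Hal, so that no other probe set can be set beside either. Of the 11 acute-phase genes tested, 7 were lower in KO, and Serpina3n was the 1 member called. Both KO arrays were below both WT arrays in 4 (36.4%), against 16.8% of all genes tested. The median of the list was -0.98, and -0.14 without WT replicate 1.

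The next highest genes did not pass the threshold. Tmem87a, a transmembrane protein, read 184.8 and 71.4 in WT and 1372.9 and 1421.1 in KO (3.41, SE 0.41, limma adjusted p = 0.104). Rbm45, an RNA-binding protein, read 696.1 and 723 in WT and 1527.7 and 1699.4 in KO (1.17, SE 0.16, adjusted p = 0.181). Mest, an imprinted gene, read 2247.3 and 1648.4 in WT and 4771.6 and 5218.6 in KO (1.37, SE 0.21, adjusted p = 0.319). In all 3 genes the KO arrays were close to each other and above both WT arrays, while the WT arrays of Tmem87a lay farther apart. Kcne3, an accessory subunit of potassium channels, followed with 336.7 and 271.9 in WT against 1264.7 and 1105.1 in KO, a difference of 1.91. The remaining genes of the 10 highest were the matricellular factor Ccn2, the transcription factor Snai2 and the collagen gene Col11a1, together with 1700012B09Rik and the IL-18 receptor subunit Il18rap. Their differences ran from 0.80 for Snai2 to 1.80 for 1700012B09Rik. Each of Snai2, Col11a1 and Il18rap has a second probe set, and all of these were higher in KO too.

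Among the lowest genes, several belong to myeloid cells and to complement. Serping1, the inhibitor of the first complement component, read 10943.1 and 12042.6 in WT and 5749.3 and 4745.1 in KO (-1.13, SE 0.17, limma adjusted p = 0.258). Cd209a, a C-type lectin of dendritic cells, read 564.1 and 863.1 in WT and 88.6 and 115.5 in KO (-2.61, SE 0.40, adjusted p = 0.309). Mmp3, the matrix-degrading stromelysin, read 6259.3 and 11055.7 in WT and 3215.9 and 3337.2 in KO (-1.34, SE 0.22, adjusted p = 0.342). The KO arrays did not reach the WT arrays in any of the 3 genes, and none passed the threshold. The rest of the 10 lowest were Sned1 of the extracellular matrix, the alanine transaminase Gpt2, AA467197, Csf2rb, which is the shared receptor chain for GM-CSF, IL-3 and IL-5, Adgre1, which encodes the macrophage antigen F4/80, and the carboxypeptidase-like Cpxm1. Their differences ran from -1.65 for Sned1 to -0.79 for Csf2rb. All 4 probe sets of Gpt2 and both of Csf2rb were lower in KO.

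**Figure D2:**
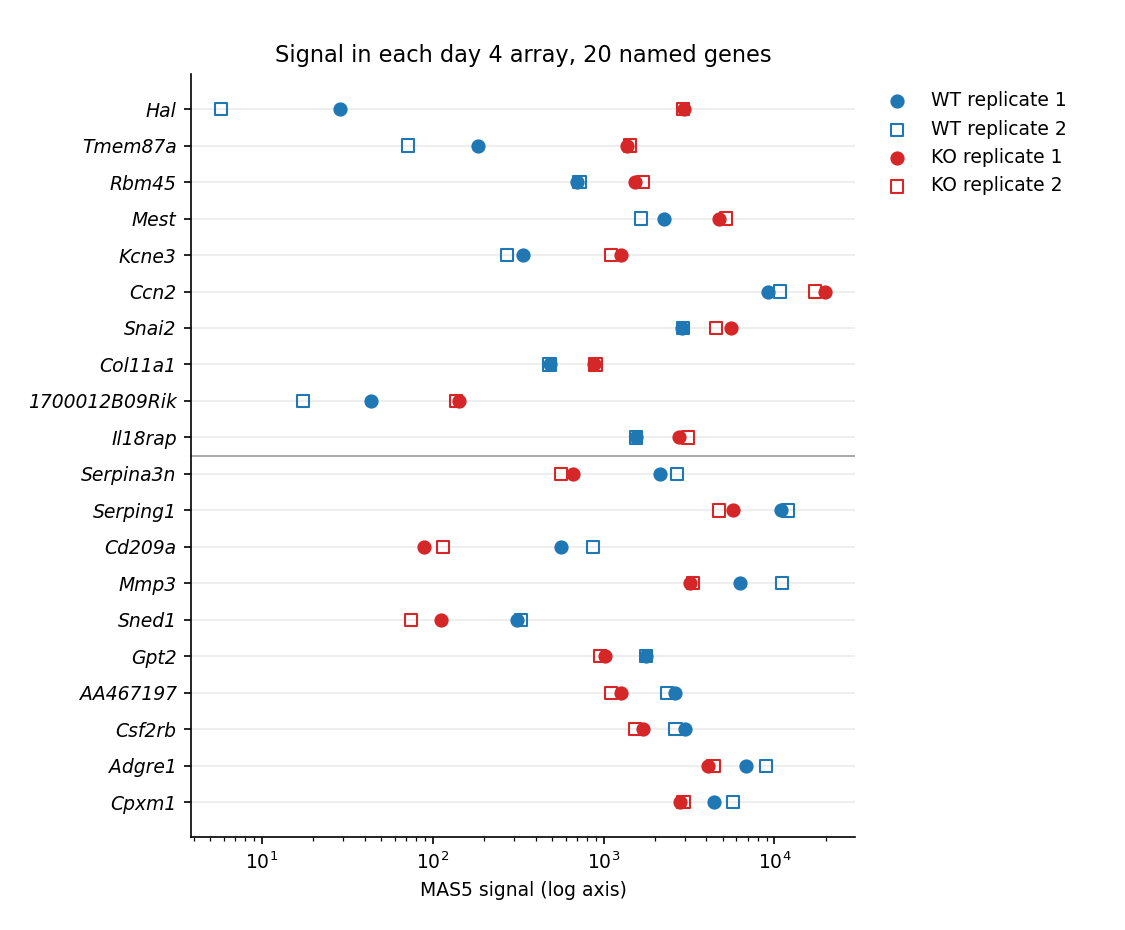
Signal (log axis) in each day 4 array of the 10 highest and, under the line, the 10 lowest genes by the naming rule. WT arrays are blue and KO arrays red, and the genotypes do not overlap in any row because the rule asked for it, with Hal widest at 28.6 and 5.8 against 2947.1 and 2920.

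Across all genes tested, 19.6% had both KO arrays above both WT arrays and 16.8% had both below. At an unadjusted limma p under 0.05, 3.85% of the genes were higher and 3.26% lower in KO. The median difference over all genes was 0.01. These shares are the background for the lists that follow, whose members were chosen with earlier results of these data known.

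Genes of cell division were higher in KO almost throughout. All 21 mitosis genes tested were higher in KO, 19 of them (90.5%) without overlap and 13 (61.9%) at an unadjusted p under 0.05, and their median difference was 0.67. Of 24 DNA replication genes, 23 were higher in KO, 21 (87.5%) without overlap and 15 (62.5%) at an unadjusted p under 0.05, with a median of 0.49. None of them passed the adjusted threshold. In the replicate 1 arrays alone the medians were larger, 0.99 for mitosis and 0.71 for replication, and all 21 and 23 of 24 genes were higher in KO. WT replicate 1 was the lowest array for both lists. Without it the medians were 0.36 and 0.40.

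Mcm5, a subunit of the replicative helicase, read 919.9 and 2067 in the WT arrays and 3214 and 2892.3 in the KO arrays (1.13, SE 0.35). Gins1, another part of that helicase, read 334.2 and 371.5 in WT and 762.6 and 677 in KO (1.0, SE 0.21), but its dimmer probe set differed by -0.41 and the mean of both gave 0.29. These probe sets kept the genotypes apart, although Mcm5 differed more than 2-fold between the WT arrays. Uhrf1, which carries DNA methylation through replication, had a difference of 0.90, and Rrm2, a subunit of ribonucleotide reductase, of 0.85. Without WT replicate 1 the differences were 0.56 for Mcm5, 0.51 for Uhrf1 and 0.54 for Rrm2. Fen1, a flap endonuclease, was the 1 replication gene that was not higher, although the mean of its probe sets gave 0.31, with 1846.2 and 1630.9 in WT and 1594.1 and 1651.8 in KO.

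Among the mitosis genes, Ndc80, a kinetochore protein, read 205.6 and 269.4 in WT and 604.6 and 386.8 in KO (0.99, SE 0.32). Birc5, which encodes survivin, read 901.7 and 1475.4 in WT and 2400.5 and 2166.7 in KO (0.97, SE 0.29). Both KO arrays exceeded both WT arrays, and KO replicate 1 was the highest array for both genes. Cdc20, an activator of the anaphase-promoting complex, had a difference of 0.86 and Ccnb2, a B-type cyclin, of 0.78. The smallest difference on the list was 0.39, for Kif23. Without WT replicate 1 these values were 0.62 for Birc5, 0.53 for Cdc20, 0.50 for Ccnb2 and 0.04 for Kif23. Cdc20 and Kif23 have 3 probe sets each, of which 1 was not higher in KO, and their means gave 0.37 and 0.20.

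The promoters of these 2 lists were searched in the RefSeq sequences (build GRCm38.p6) for motifs known from cell-cycle genes, on both strands of the 250 bases before each start. All tested members with an entry were searched, whatever their difference between KO and WT. The shares therefore describe the lists and not these tumours, and no match was tested for binding. The E2F motif (TTTCGCGC, TTTGGCGC or TTTCCCGC) was found in 7 of the 20 replication genes with a promoter entry (35%), in 1 of 18 mitosis genes (5.56%) and in 3.29% of the 10454 tested genes that have an entry. The CHR motif (TTTGAA), known from genes of late cell cycle, was found in 7 of 18 mitosis genes (38.9%), in 2 of 20 replication genes (10%) and in 12.9% of the tested genes. Shown are 80 bases around the match nearest the start, with the motif in capitals, for the 2 members of each list with the largest difference that hold it. For replication these are Mcm5 (chr8:75109324-75109403 on the plus strand) and Uhrf1 (chr17:56304092-56304171 on the plus strand), and for mitosis Cdc20 (chr4:118437344-118437423 on the minus strand) and Ccnb2 (chr9:70421679-70421758 on the minus strand). In Mcm5, 2 matches on opposite strands overlap.
Mcm5: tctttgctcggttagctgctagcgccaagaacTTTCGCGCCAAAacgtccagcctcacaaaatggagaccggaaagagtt
Uhrf1: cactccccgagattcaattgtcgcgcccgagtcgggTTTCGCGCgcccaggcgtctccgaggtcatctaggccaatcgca
Cdc20: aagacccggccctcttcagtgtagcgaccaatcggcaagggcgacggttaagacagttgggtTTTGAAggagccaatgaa
Ccnb2: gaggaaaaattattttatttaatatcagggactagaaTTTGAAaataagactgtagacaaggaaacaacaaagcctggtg

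Endothelial genes were also higher. Of 21 tested, 18 were higher in KO, 13 (61.9%) without overlap and 8 (38.1%) at an unadjusted p under 0.05, and the median was 0.41. Emcn, a mucin-like protein of capillaries and veins, read 1441.2 and 903.1 in WT and 2176.3 and 1891.5 in KO (0.82, SE 0.31, limma adjusted p = 0.648). Cdh5, the cadherin of endothelial junctions, read 783.2 and 750.1 in WT and 1718.6 and 1035.1 in KO (0.79, SE 0.24, adjusted p = 0.539). The genotypes were apart in both, with KO replicate 1 highest. The other probe set of Cdh5 was not higher in KO, and the mean of both gave 0.32. The tight junction gene Cldn5 had a difference of 0.76 and the VEGF receptor Flt1 of 0.71. Selp, the P-selectin of activated endothelium, went the other way with 1049.2 and 531.2 in WT and 481.7 and 500.8 in KO (-0.59, SE 0.30). Without WT replicate 2 the difference was 0.49 for Emcn and 0.42 for Flt1, without KO replicate 1 it was 0.43 for Cdh5, and without WT replicate 1 it was -0.11 for Selp. Without the replicate 2 arrays the median of the list was 0.42.

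All 13 cholesterol synthesis genes tested were higher in KO, 9 (69.2%) without overlap and 4 (30.8%) at an unadjusted p under 0.05, with a median of 0.31. Cyp51, the lanosterol demethylase, read 844.2 and 1103.3 in WT and 1827.1 and 1724.5 in KO (0.87, SE 0.31). Idi1, Fdps and Sc5d, which make isoprenoid units, farnesyl diphosphate and a late sterol, had differences of 0.72, 0.69 and 0.47, and that of Fdps was 0.40 without WT replicate 1. The replicate 1 arrays alone gave a median of 0.39, with 12 of 13 genes higher.

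Interferon-stimulated genes pointed the other way. Of 23 type I interferon genes tested, 21 were lower in KO, 19 (82.6%) without overlap and 9 (39.1%) at an unadjusted p under 0.05, with a median of -0.61. Of 21 IFN-γ response genes, 20 were lower, 11 (52.4%) without overlap and 5 (23.8%) at an unadjusted p under 0.05, with a median of -0.53. None passed the adjusted threshold. WT replicate 2, the array with the most muscle RNA, was the highest for both lists. With the median of the muscle list as a covariate in the fit, the medians were -0.69 and -0.63, while that of the muscle list itself went from -1.24 to 0.36. The replicate 1 arrays alone gave medians of -0.42 and -0.28, with 19 of 23 and 13 of 21 genes lower. Leaving out WT replicate 2 alone gave -0.42 and -0.34.

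Rsad2, the antiviral enzyme viperin, read 2948.4 and 2292.2 in the WT arrays and 861.9 and 698.9 in the KO arrays (-1.72, SE 0.32, limma adjusted p = 0.352). Ifit1, which binds foreign RNA, read 1505.8 and 1120 in WT and 408.4 and 412.8 in KO (-1.62, SE 0.38, adjusted p = 0.466). Ifit3 of the same family read 1985.6 and 1731.8 in WT and 798.4 and 692.7 in KO (-1.30, SE 0.25, adjusted p = 0.361). In these 3 genes WT replicate 1 was the higher WT array, unlike in the list as a whole, and the replicate 1 arrays alone gave -1.76, -1.84 and -1.30. Mx1, an antiviral GTPase, read 219.9 and 499.6 in WT and 159.5 and 112.8 in KO (-1.21, SE 0.42), and its difference was -0.65 without WT replicate 2.

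Among the IFN-γ response genes, Cxcl10, which attracts T cells, read 777.6 and 619.2 in WT and 256.9 and 232.1 in KO (-1.45, SE 0.60). Cd274, which encodes the checkpoint ligand PD-L1, read 757.9 and 531.5 in WT and 361.5 and 275 in KO (-0.97, SE 0.35). Both KO arrays were below both WT arrays, with WT replicate 1 highest. The GTPases Irgm2 and Ifi47, which act against intracellular microbes, had differences of -1.12 and -0.96, and there WT replicate 2 was highest, at 1681.6 and 1785.6. Without that array they were -0.67 and -0.51.

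The interferon-stimulated response element (ISRE) was searched in the same promoters by its core, the letters AAANNGAAA. It was found in 9 of 16 type I interferon genes with an entry (56.2%), in 10 of 16 IFN-γ response genes (62.5%), in 2 of 20 replication genes (10%) and in 8.75% of the tested genes. The stretches of Rsad2 (chr12:26456516-26456595 on the minus strand) and Ifit1 (chr19:34640768-34640847 on the plus strand), the 2 genes of the list with the largest difference, show 2 matches each, in capitals. In Ifit1 both are read on the opposite strand, in Rsad2 the first of them. A match is a run of letters and was not tested for binding. Here too the members were searched whatever their difference, so that the shares describe the lists and not these tumours.
Rsad2: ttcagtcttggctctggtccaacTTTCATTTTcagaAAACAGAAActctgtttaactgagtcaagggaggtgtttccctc
Ifit1: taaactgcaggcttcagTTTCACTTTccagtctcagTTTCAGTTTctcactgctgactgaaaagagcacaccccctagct

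Most other genes of Toll-like receptor signalling had lower signals as well. Of 23 Toll-like receptor and adaptor genes tested, 20 were lower in KO, 13 (56.5%) without overlap and 6 (26.1%) at an unadjusted p under 0.05, and the median was -0.31, or -0.17 without WT replicate 2. These counts hold the deleted Tlr3 and Tlr7 themselves. Tlr5, the flagellin receptor, read 399.5 and 375.7 in WT and 176.6 and 234.6 in KO (-0.88, SE 0.26). Cd14, the co-receptor for lipopolysaccharide, read 12733.9 and 4735.8 in WT and 4175.7 and 4182.7 in KO (-0.89, SE 0.36), so that WT replicate 1 stood alone, and without it the difference was -0.18. The receptor kinases were mixed. Irak2 had a difference of 0.43 (SE 0.13), and Irak3, which restrains the pathway, read 898 and 1156.3 in WT and 620.3 and 661.4 in KO (-0.66, SE 0.19). The brightest probe set of Irak1 read 3950.6 and 2555.8 in WT and 5405.4 and 4599.6 in KO (0.65, SE 0.19), but its other 3 probe sets differed by -0.28, 0.06 and -0.00083, and the mean of all 4 was 0.11.

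Complement genes were lower nearly throughout. Of 14 tested, 13 were lower in KO, 12 (85.7%) without overlap and 10 (71.4%) at an unadjusted p under 0.05, with a median of -0.57 and of -0.44 in the replicate 1 arrays alone. C1ra and C1s1, the proteases of the first component, had differences of -1.15 (SE 0.29) and -1.0 (SE 0.26). C1ra read 3248.9 and 3052.9 in WT and 1545.9 and 1288.2 in KO. Cfb, a factor of the alternative pathway, read 2387.2 and 3608.6 in WT and 1508.1 and 1170.5 in KO (-1.13, SE 0.29). The difference of Cfb was -0.66 in the replicate 1 arrays alone. Serping1, given above, belongs to the same list.

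Macrophage genes showed a like picture with more spread. Of 19 tested, 17 were lower in KO, 13 (68.4%) without overlap and 10 (52.6%) at an unadjusted p under 0.05, and the median was -0.51. Adgre1 read 6867.4 and 8908.1 in WT and 4112 and 4402 in KO (-0.88, SE 0.16, limma adjusted p = 0.342). Cd163, a scavenger receptor for haemoglobin, read 2110.5 and 3638.1 in WT and 1803.5 and 1125.5 in KO (-0.95, SE 0.33), and the integrin Itgam had a difference of -0.74. For Cd163 it was -0.56 without WT replicate 2. In the replicate 1 arrays alone the difference was -0.225 for Cd163 and -0.33 for Itgam. Msr1, a scavenger receptor for modified lipoproteins, was higher instead, at 2766.9 and 2598.6 in WT and 5448.8 and 3889.6 in KO (0.78, SE 0.16). WT replicate 2 was the highest array of the list, and without it the median was -0.26, with 14 of 19 genes lower in the replicate 1 arrays alone.

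Dendritic cell genes were lower in 15 of 17, 10 (58.8%) without overlap and 6 (35.3%) at an unadjusted p under 0.05, with a median of -0.55. In the replicate 1 arrays alone 10 of 17 genes were lower and 7 higher, with a median of -0.36. Next to Cd209a, the chemokine genes Ccl17 and Ccl22, whose products attract T cells that bear CCR4, had differences of -1.30 and -1.24. Ccl17 read 454.9 and 1413.3 in WT and 284.8 and 352.1 in KO, and without WT replicate 2 its difference was -0.50. Ccl22 read 401.3 and 580 in WT and 198.3 and 191.4 in KO. The maturation marker Cd83 read 1277.5 and 1308.5 in WT and 642.9 and 689.9 in KO (-0.94, SE 0.36). Flt3, the receptor of dendritic cell progenitors, was not lower, with 112.8 and 241.6 in WT and 262 and 237.3 in KO (0.54, or 0.04 without WT replicate 1).

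Genes of cytotoxic cells were dim, and 11 of 13 were lower in KO, 8 (61.5%) without overlap and 5 (38.5%) at an unadjusted p under 0.05, with a median of -0.47. WT replicate 2 was the highest array here too, as for the complement and dendritic cell lists, and without it the median was -0.27, with 9 of 13 genes lower in the replicate 1 arrays alone. Gzmb, a granzyme that kills target cells, read 247 and 293.8 in WT and 143.8 and 90 in KO (-1.13, SE 0.27). Gzma read 270.8 and 589.2 in WT and 129.6 and 157.9 in KO (-1.39, SE 0.40). Il2rb, a receptor chain for IL-2 and IL-15, and Gzmc had differences of -1.45 and -1.56, with a highest signal of 122.2 for Il2rb and of 533 for Gzmc, the latter in WT replicate 2. Without that array the difference was -0.85 for Gzma and -0.54 for Gzmc. The other probe set of Il2rb differed by -0.38 with overlapping genotypes, and the mean of both gave -0.91. The 11 T cell genes tested had a median of -0.08, with 5 higher and 6 lower in KO. It was -0.35 in the replicate 1 arrays alone, and 5 more T cell genes were under the limit for testing.

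The arms of antigen presentation were read separately. All 14 MHC class I genes tested were lower in KO, 7 (50%) without overlap and 1 (7.14%) at an unadjusted limma p under 0.05. Their median was small, at -0.25 (-0.14 without WT replicate 2). In the replicate 1 arrays alone it was -0.12, with 9 of 14 genes lower. Nlrc5, the transactivator of that pathway, read 368.2 and 608.1 in WT and 261.1 and 278.6 in KO (-0.78, or -0.43 without WT replicate 2). Of 11 MHC class II genes, 8 were higher in KO, but without overlap only 1 (9.09%) was above and 2 (18.2%) were below. The median of 0.16 was 0.36 in the replicate 1 arrays alone and turned to -0.17 without WT replicate 1. The differences ran from -0.53 to that of H2-Oa, a chaperone subunit that limits peptide loading. H2-Oa read 183.6 and 193.6 in WT and 309.4 and 295.1 in KO (0.64, SE 0.24).

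**Figure D3:**
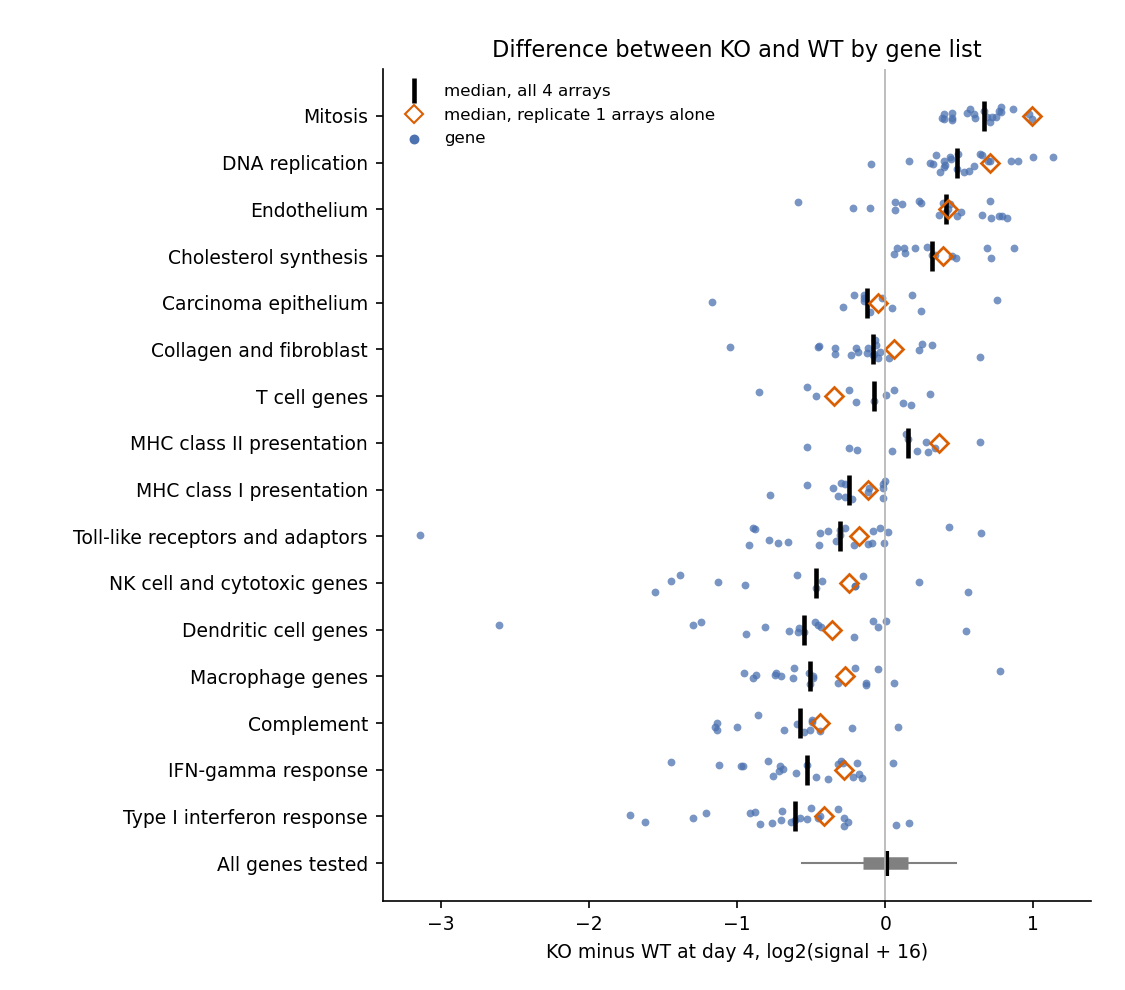
Difference between KO and WT at day 4, log2(signal + 16), of the members of 16 gene lists, with each point a gene, black bars the medians and orange diamonds the medians of the replicate 1 arrays alone. For all genes tested the grey bar spans the middle quartiles, the thin line the 5th to 95th percentile and the mark the median of 0.01, and mitosis (0.67) and type I interferon (-0.61) lie at the ends.

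Further single lists held smaller sets of genes apart. All 7 eosinophil and type 2 genes tested were lower in KO, 5 (71.4%) without overlap and 2 (28.6%) at an unadjusted limma p under 0.05. Their median was -0.34. A further 8 genes of the list were under the limit for testing, among them Siglecf, Prg2 and Epx and the cytokine genes Il4, Il5 and Il13. On that list was Ccl24, whose product recruits eosinophils, at 747.5 and 477.8 in WT and 131.5 and 162 in KO (-1.92, SE 0.38, limma adjusted p = 0.373). Retnla, a marker of alternatively activated macrophages, read 2621.2 and 10222.6 in WT and 1872.7 and 1585.5 in KO (-1.58, SE 0.63), and without WT replicate 2 its difference was -0.60. Of 16 immediate early genes, 10 (62.5%) were higher in KO, 4 of them (25% of the list) at an unadjusted limma p under 0.05. Without overlap, 5 (31.2%) were above and 1 (6.25%) below. The median of 0.09 was -0.06 without KO replicate 1. Egr3 read 1107.2 and 2000.5 in WT and 4496.6 and 3810.7 in KO (1.47, SE 0.30), but its dimmer probe set differed by -0.40, and the mean of both gave 0.53. Nr4a1 had a difference of 1.11, Egr1 of 0.72 (0.41 without KO replicate 1) and Myc of 0.57 (0.25 without WT replicate 2), all of them transcription factors like Egr3. The 11 pericyte and smooth muscle genes tested had a median of -0.09, with 5 higher and 6 lower in KO. That median was 0.11 in the replicate 1 arrays alone. Kcnj8, a potassium channel of pericytes, read 634.1 and 1437.7 in WT and 483.6 and 542.9 in KO (-0.88, SE 0.37), and -0.30 was its difference without WT replicate 2. Tagln, the actin-binding protein transgelin of smooth muscle, had a difference of 1.06 (SE 0.35, and 0.52 without WT replicate 2), and for the smooth muscle actin Acta2 it was 0.64 (SE 0.14).

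No difference was established at this day for Il6, Il24 and Ifng, which the study put forward from its day 6 arrays. The same held for a wider list of cytokine genes. By quantitative PCR of KO tumours relative to skin, the study placed the start of Il6 and Il24 induction between day 4 and day 6. Il6 read 594.9 and 475.2 in WT and 635.9 and 458.3 in KO, a difference of 0.02 (SE 0.27). Il24, of the IL-20 family, read 141.1 and 52.1 in WT and 130 and 114.7 in KO (0.42, SE 0.42). Cxcl1, a neutrophil attractant, read 3489.5 and 869.9 in WT and 1874.8 and 1869.6 in KO (0.10, SE 0.60), so that both KO arrays lay between the WT arrays. Il10 was lower, at 273.9 and 162.7 in WT and 134.5 and 93.8 in KO (-0.82, SE 0.43, and -0.48 without WT replicate 1). Ifng was under the limit for testing, with 25.4 and 32.9 in WT and 31.5 and 9.5 in KO. Of the 7 genes of the wider cytokine list that were tested, none reached an unadjusted limma p under 0.05. Among all genes tested, 3.85% did so as higher and 3.26% as lower. With so few genes, that count does not show an absence of change.

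Neutrophil-attracting chemokines show how far the WT arrays were apart. Their median level, counted from each gene's own mean in these arrays, was 0.94 in WT replicate 1 and -1.22 in WT replicate 2, and 0.04 and 0.11 in the KO arrays. Both KO arrays thus fell between the WT arrays, and the list changed its sign with the WT array left out, from -0.89 without WT replicate 2 to 1.09 without WT replicate 1. For the interferon, complement, macrophage, mitosis and replication lists, in contrast, both KO arrays lay on the same side of both WT arrays.

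**Figure D4:**
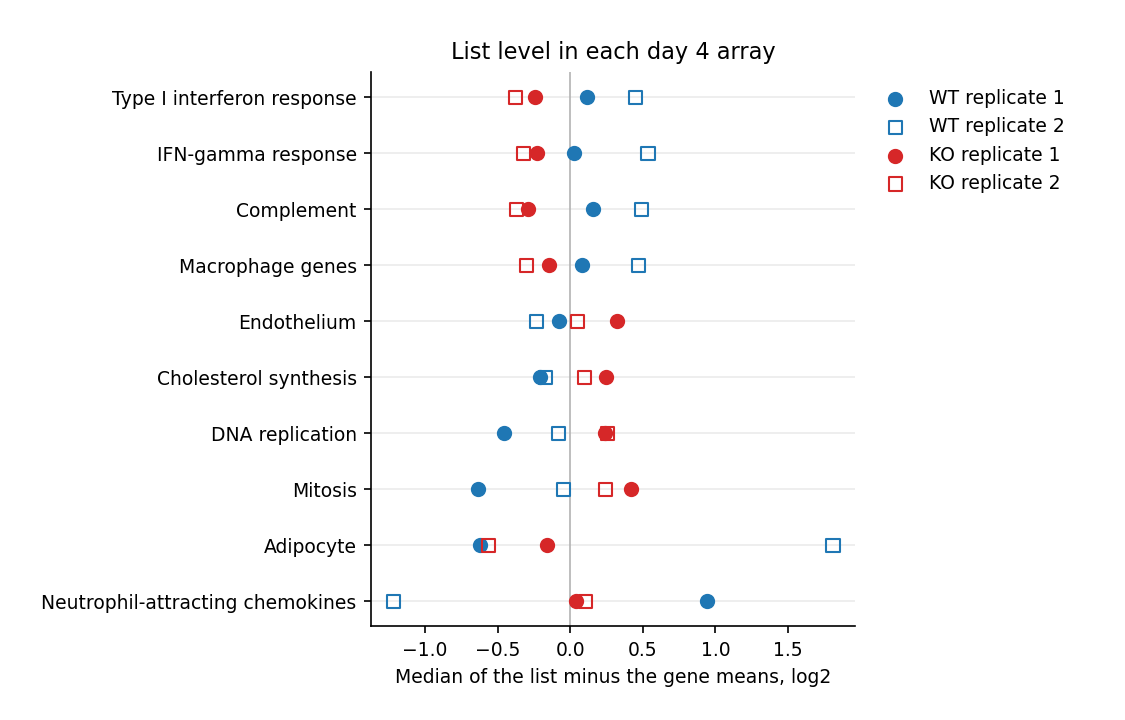
Median level of 10 gene lists in each day 4 array, as log2(signal + 16) minus each gene's own day 4 mean. WT arrays are blue and KO arrays red, circles are replicate 1 and squares replicate 2. The type I interferon list was at 0.12 and 0.45 in WT and -0.24 and -0.38 in KO, whereas the adipocyte list was high in WT replicate 2 alone, at 1.81.

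The KO effect was then set against that at day 6, in other tumours of the same genotypes. The difference between the days passed the adjusted threshold for 0 of 12976 genes (0%), and 4.38% of the genes had an unadjusted p under 0.05 with limma. Hal was higher in KO on both days, by 6.56 at day 4 and by 4.45 at day 6, and Cd209a was lower on both, by -2.61 and -4.25. Tmem87a and Rbm45 were also higher in KO on both days, at 2.93 and 0.99 on day 6. Serpina3n differed by -0.30 at day 6, where the arrays read 1102.9 and 1269.1 in WT and 1079.8 and 847.9 in KO, and its difference between the days was 1.64 (SE 0.26, limma adjusted p = 0.996). Ccl24 was lower in KO at day 4 and higher at day 6, by 2.54, and Il24 had a difference of 3.27 at day 6.

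By list, 11 of the 23 type I interferon genes, 11 of the 21 IFN-γ response genes and 7 of the 21 endothelial genes had an unadjusted p under 0.05 for the difference between the days. The median of the type I interferon list was -0.61 at day 4 and 0.24 at day 6, and that of the IFN-γ list was -0.53 and 0.80. Complement had medians of -0.57 and -0.58 on the days. Mitosis had medians of 0.67 and 0.31 and replication of 0.49 and 0.17, higher in KO on both, and endothelium had 0.41 and -0.12. At day 6 the muscle RNA was in KO replicate 2, with a median muscle signal of 1868, and in no WT array, so that the days differ in that respect too. With the muscle covariate in the fit, the median difference between the days went from 0.94 to 1.02 for the type I interferon list, from 1.17 to 1.41 for the IFN-γ list and from -0.58 to -0.28 for endothelium. It went from -0.29 to -0.54 for mitosis, from -0.40 to -0.47 for replication and from 0.21 to 0.03 for complement, while that of the muscle list itself went from 3.49 to -0.49.

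**Figure D5:**
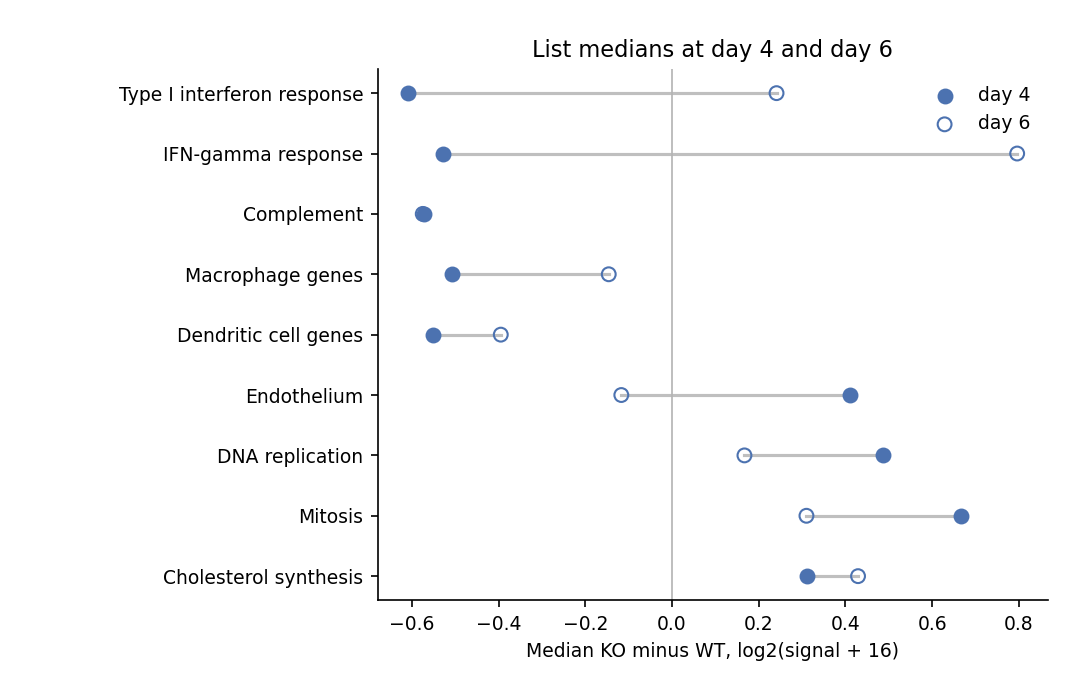
Median KO minus WT difference, log2(signal + 16), of 9 gene lists at day 4 (filled) and day 6 (open). The interferon lists lay on opposite sides of 0 on the days, at -0.61 and 0.24 for type I and -0.53 and 0.80 for IFN-γ, and the complement medians of -0.57 and -0.58 nearly coincide.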

How the data were processed

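Tumour RNA was hybridised to Affymetrix arrays with 45101 probe sets, and the authors deposited MAS5 intensity values on a linear scale, scaled to a trimmed mean of 1000 per array. MAS5 is named in the submitters' processing notes without a version. Detection calls were not used here, and the number of arrays limits the precision.

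Groups were taken from the array titles. Of the probe sets, 34958 carried 1 gene symbol, 932 several and 9211 none. For each of 18194 genes the probe set with the highest mean over the 8 arrays was kept, and 12976 genes were tested, those whose mean reached the 40th percentile over the probe sets (6.56 on the log2 scale). Values were log2(signal + 16). All 8 arrays were fitted as 4 groups with limma 3.58.1 in R 4.3.3 (lmFit, eBayes with trend) with Benjamini-Hochberg adjustment over all genes tested, called under 0.05, and the fit was tested on simulated data. The difference between the days was a contrast of the same fit.

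Genes were named by rule: the targeted receptors, genes of interest to the study, muscle and sex genes, the 10 highest and 10 lowest genes (called genes first, then those of smallest p, arrays not overlapping), and up to 4 members of each list with the largest difference and 2 against it. Kif23 and Irak3 were added after their values were seen. The arrays to compare, the genes and the lists were chosen with earlier results of these data known, and lists are described by counts and medians. Alternatives covered normalization, pseudocount, filter, probe set choice, the variance trend, a replicate block, arrays left out, muscle signal as a covariate and the methods' t-test. What a replicate number shares between groups is not in the labels. The correlation of the step from replicate 1 to 2 between WT and KO was 0.27, or 0.13 without the muscle list, and the numbers were not taken as pairs.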

Additional observations from a re-analysis of the deposited data

How the results depend on the processing

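With 2 arrays per group and muscle RNA in both replicate 2 arrays, the calls at day 4 rested on few values. Against 2 genes called, 1 was called with the 60th percentile filter, which leaves out Hal, 1 with the arrays of day 4 alone and 1 without the variance trend (Hal in both), 0 with both day 4 replicate 2 arrays left out, and 4 with the muscle list as a covariate (Hal, Serpina3n, Tmem87a and Ptx3, the last named after its value was seen). Leaving out each array in turn gave 0 to 11, with 0 when either KO array of day 4 was left out, 11 without WT day 4 replicate 1, 2 (Hal and Cd14) when the other WT array of that day was omitted, and 1 when either WT array of day 6 was left out. The fit with the replicate block called 2 genes, Hal and Tmem87a, and Serpina3n was not called in it. The methods' t-test on the 4 arrays gave 815 genes without adjustment and 0 after Benjamini-Hochberg. For the difference between the days, the count of 0 became 0 to 9 with each array left out, 9 without KO day 6 replicate 1 and 3 without KO day 6 replicate 2, and 3 with the muscle covariate, while 568 genes had an unadjusted p under 0.05. Centring each array on its median shifted the median of all genes to 0.09, with 65.5% of genes higher in KO in place of 51.7%. The other settings left the counts within 1.5 times.

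Hal stayed between 5.22 and 7.69 and Serpina3n between -2.11 and -1.67 under all alternatives run for them. The medians of the mitosis, replication, endothelium, cholesterol, type I interferon, IFN-γ, complement, macrophage, dendritic, cytotoxic, class I and Toll-like receptor lists kept their sign in 19 of 19 alternatives each. Part of that agreement was fixed in advance, because leaving out a day 6 array or adding the replicate block cannot move a day 4 difference. Genes whose direction turned were those with no clear difference or with muscle signal, and the cause was not tested. With each array left out in turn the values ran from -0.23 to 1.38 for Tlr9, from -3.77 to 2.55 for Acta1, from -6.17 to 1.23 for Ckm, from -7.56 to 1.89 for Myh4, from -0.21 to 0.25 for Il6, from -0.19 to 1.02 for Il24, from -0.89 to 1.09 for Cxcl1 and from -0.031 to 0.52 for Krt18. Each turned without WT day 4 replicate 2, and Acta1, Ckm and Il6 also without KO day 4 replicate 1. Averaging over probe sets, Fen1 was 0.31 in place of -0.10. With both replicate 2 arrays left out the values were -0.088 for Tlr9, 0.61 for Acta1, -0.11 for Il24 and -0.89 for Cxcl1. The muscle covariate gave 1.42 for Acta1, -0.15 for Il6 and -0.28 for Cxcl1.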

Other observations

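Among further lists at day 4, several of immune cells and their signals were mostly lower in KO. The mast cell list was mixed, with 5 of 9 genes tested higher (55.6%, against 51.7% of all genes) and a median of 0.19. Without overlap, 3 (33.3%) were above and 1 (11.1%) below, against 19.6% and 16.8% of all genes. The list median was 0.37 in the replicate 1 arrays alone, -0.06 with the muscle covariate and -0.16 with the 60th percentile filter. The IL-1 family and NF-kappaB feedback lists had medians of -0.13 and -0.05. Of 6 B cell genes tested, 5 were lower, with a median of -0.44 that was -0.25 without WT replicate 2. Of 11 immune checkpoint genes, 8 were lower, with a median of -0.38 that was -0.05 without WT replicate 2. Of 11 monocyte-attracting chemokine genes, 10 were lower, with a median of -0.31, and of 8 lymphocyte-attracting ones 6 were lower, with a median of -0.28. Of 12 neutrophil genes, 8 were lower, with a median of -0.11, against -1.06 and 11 of 12 in the replicate 1 arrays alone and 0.36 without WT replicate 1. The 5 satellite cell and muscle regeneration genes had a median of -0.80 that turned to 0.16 without WT replicate 2, and the 8 cornified epidermis genes, all lower, had a median of -0.26 that turned to 0.12 with the muscle covariate.

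Other lists had medians nearer 0. Of 18 oxidative phosphorylation genes tested, 17 were higher in KO, with a median of 0.05 that was -0.02 in the replicate 1 arrays alone. Of 14 unfolded protein response genes, 13 were lower, with a median of -0.10, and of 21 hypoxia and glycolysis genes 16 were lower, with a median of -0.05. The 15 p53 target genes had a median of 0.05, with 9 higher and 6 lower.

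Of 21 collagen and fibroblast genes, 16 were lower in KO, with a median of -0.08 that was 0.06 in the replicate 1 arrays alone. Col14a1, a fibril-associated collagen, read 7775 and 14715.1 in WT and 4603.4 and 5810.9 in KO (-1.05, SE 0.27), and Dcn, the proteoglycan decorin, read 26814.3 and 29787.3 in WT and 19919.3 and 21549.4 in KO (-0.45, SE 0.16). Without WT replicate 2 the difference of Col14a1 was -0.59, and the mean of both Dcn probe sets, of which 1 was not lower, gave -0.14. Among 13 genes of matrix metalloproteinases and their inhibitors, 8 were lower, and Mmp12, the macrophage elastase, read 5312.1 and 6055.4 in WT and 2638 and 2715.7 in KO (-1.08, SE 0.39). Lpl, the lipoprotein lipase of fat and muscle, read 3709.8 and 12819.7 in WT and 2141.2 and 1734.4 in KO (-1.83, SE 0.46), and its difference was -0.94 without WT replicate 2. These 4 genes were picked with their values known. None of them passed the adjusted threshold with limma, and in each both KO arrays were below both WT arrays.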
